A study of Rattus norvegicus with 7 samples.

Results

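The genes Gabra2, Gabra3, Gabra4, Gabra5, Gabra6 and Gabrd encode alpha and delta subunits of the GABA-A receptor, and their signals were compared in the brains of rats bred for high or low alcohol drinking. A probe counted as a member when its accession, without the version, was a RefSeq transcript of 1 of these 6 genes. This rule found 5 of the 33849 transcript probes on the array, 1 each for Gabra3, Gabra4, Gabra5, Gabra6 and Gabrd, among 6046 genes that could be named. No probe matched Gabra2, which was not analysed here. The data came from the whole brain of adult male Wistar rats, 4 of the alcohol-preferring (P) line and 3 of the alcohol-non-preferring (NP) line. Both lines were made by selective breeding, all rats were alcohol naïve, and all were housed in pairs. Each rat had its own 1-colour array with biotin-labelled RNA, and an NP array had been dropped by the authors for its quality. The labels name neither the litter nor the family of a rat.

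GABA-A receptors are chloride channels that open when they bind GABA, the main inhibitory transmitter of the brain. Each receptor is a ring of several subunits, and the alpha subunit sets much of its location and of its sensitivity to benzodiazepines. Receptors that carry the delta subunit lie mostly outside synapses, respond to low ambient GABA and to neurosteroids, and pass a lasting (tonic) current. The delta subunit is best known as the partner of the Gabra4 product in forebrain and thalamus and of the Gabra6 product in cerebellar granule cells. Receptors with the Gabra5 product are found above all in the hippocampus, and many of them are also tonic.

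The arrays had been scanned on 3 dates. Date 1 held P 1, P 2, NP 2 and NP 3, date 2 held NP 4, and date 3 held P 3 and P 4, so line and date were only partly separate. Between 77.9% and 81.6% of probes were above background on the P arrays, and between 81.5% and 85.9% on the NP arrays. All 5 subunit probes were above background on all 7 arrays. Signals below are on the log2 scale after normexp background correction and quantile normalization. Differences are P minus NP, estimated over all 7 arrays by limma, with p-values adjusted by Benjamini-Hochberg over the 29003 tested probes. The small number of arrays limits the precision of each value.

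Gabrd was higher and Gabra5 lower in every P rat than in any NP rat, but neither difference passed the test over all probes. Gabra4 also had its 4 P values above its 3 NP values, with a gap of 0.02. Gabra6 and Gabra3 overlapped between the lines. None of the 5 subunits was called by limma at an adjusted p under 0.05, where 0.29% of all tested probes were called. At an unadjusted p under 0.05 there were 2 of 5, Gabra5 and Gabrd, where 11.5% of all tested probes lay under it. In a tissue as mixed as whole brain, fewer cells that express a subunit and less RNA per cell cannot be told apart.

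**Figure D1:**
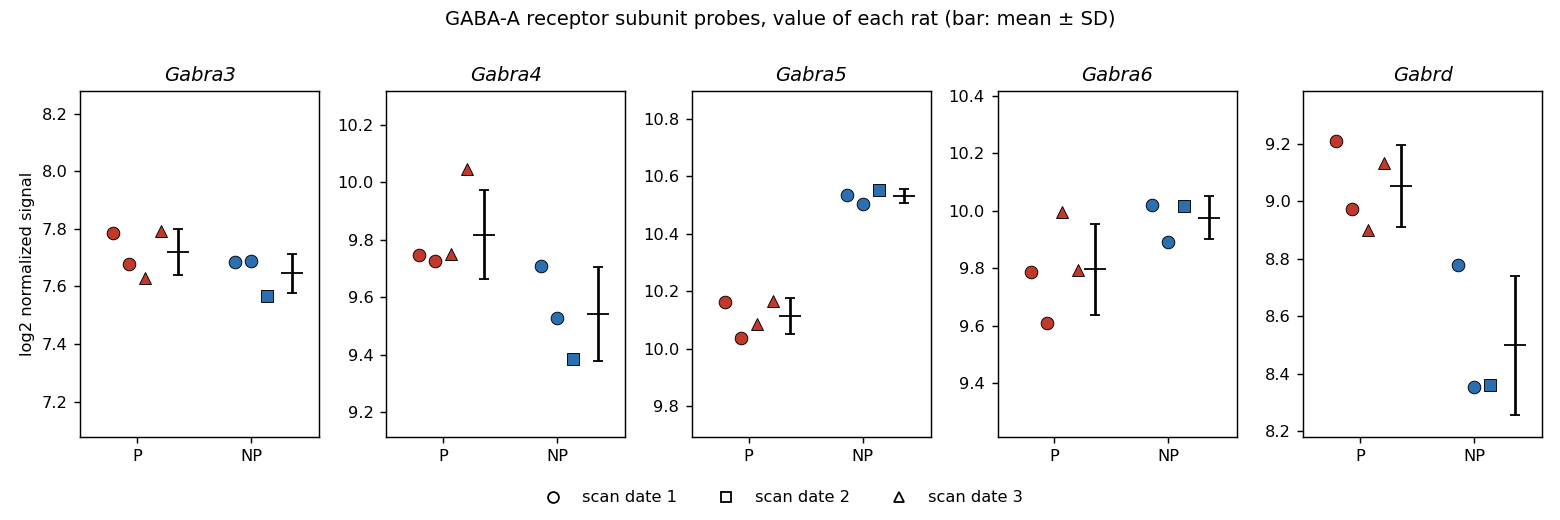
Log2 normalized signal of the 5 subunit probes in each rat, P left and NP right, with the scan date as the symbol and mean ± SD as bars (n = 4 P and 3 NP); each panel spans the same range. The P and NP points of Gabra4, Gabra5 and Gabrd do not overlap, those of Gabra3 and Gabra6 do.

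Gabrd encodes the delta subunit of tonic receptors. Its probe, GE20478, read 9.21, 8.97, 8.90 and 9.13 in P 1 to P 4, against 8.78, 8.35 and 8.36 in NP 2 to NP 4. The lowest P rat, P 3, lay 0.12 above the highest NP rat, NP 2, and the other NP rats lay well below both. Gabrd averaged 9.05 ± 0.14 in the P rats and 8.50 ± 0.24 in the NP rats (SD, n = 4 and 3). The difference was 0.55 ± 0.14 (SE), or 1.47-fold, with a 95% confidence interval of 0.24 to 0.87. Its p by limma was 0.00294 and its adjusted p 0.259. In the scaled intensity deposited by the authors, Gabrd lay between 4.41 and 5.43 in P and between 2.72 and 3.80 in NP.

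Gabra4 encodes the alpha subunit that joins delta in thalamus, striatum and dentate gyrus. Its probe, GE1162848, read 9.75, 9.73, 9.75 and 10.05 in P 1 to P 4, against 9.71, 9.53 and 9.38 in NP 2 to NP 4. P 4 stood above the other P rats, which lay close together and just above NP 2. Gabra4 averaged 9.82 ± 0.15 in the P rats and 9.54 ± 0.16 in the NP rats (SD, n = 4 and 3). The difference of 0.28 ± 0.13 (SE) had a 95% confidence interval of -0.02 to 0.57 (p by limma 0.0609, adjusted p = 0.447). With a block for scan date the difference was 0.12 ± 0.14 (SE, adjusted p = 0.635).

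Gabra5 encodes the alpha subunit best known from hippocampal pyramidal cells. Its probe, GE22120, read 10.16, 10.04, 10.09 and 10.17 in P 1 to P 4, against 10.53, 10.51 and 10.55 in NP 2 to NP 4. Both lines were tight, with a range of 0.13 in P and 0.05 in NP, and a gap of 0.34 lay between them. Gabra5 averaged 10.11 ± 0.06 in the P rats and 10.53 ± 0.02 in the NP rats (SD, n = 4 and 3). The difference was -0.42 ± 0.11 (SE), a P level 0.749 times that of NP, with a 95% confidence interval of -0.65 to -0.18. Its p by limma was 0.00257 and its adjusted p 0.245. The scaled intensity of Gabra5 lay between 10.4 and 11.0 in P and between 13.0 and 15.4 in NP.

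Gabra6 encodes the alpha subunit of cerebellar granule cells, where it forms synaptic receptors and, with delta, tonic ones. Its probe, GE20811, read 9.79, 9.61, 9.99 and 9.79 in P 1 to P 4, against 10.02, 9.89 and 10.02 in NP 2 to NP 4. P 3 lay among the NP rats, and the other P rats lay below all of them. The difference was -0.18 ± 0.12 (SE, adjusted p = 0.567), with a 95% confidence interval of -0.45 to 0.09. It was -0.12 without P 2 and -0.08 without P 1 and P 2, but -0.25 without P 3 and -0.28 without P 3 and P 4.

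Gabra3 encodes an alpha subunit known from the thalamic reticular nucleus and from monoamine neurons of the brainstem. Its probe, GE22119, had the lowest ratio of spot to local background among the 5, between 2.62 and 4.35. It read 7.79, 7.68, 7.63 and 7.79 in P 1 to P 4, against 7.68, 7.69 and 7.57 in NP 2 to NP 4. The 7 values spanned 0.23. P 1 and P 4 lay above every NP rat and NP 4 below every P rat. Of the other 4 rats, P 2 and P 3 lay below NP 2 and NP 3, P 2 only just. The difference was 0.08 ± 0.11 (SE, adjusted p = 0.798), with a 95% confidence interval of -0.17 to 0.32.

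The P and NP values of 3 of the 5 subunits did not overlap, 2 with P higher and 1 with P lower, where 13.3% of tested probes with 7 values had lines that did not overlap. The median size of a difference, whatever its sign, was 0.28 for the 5 subunits and 0.14 for all tested probes. The separation rests on scaling between arrays. In the background-subtracted intensity before any scaling, all 5 subunits overlapped. Gabra5 then lay between 731 and 1377 units in P and between 1258 and 1569 units in NP, and Gabrd between 309 and 623 units in P and between 254 and 408 units in NP. In the log2 values processed by the authors, the differences were 0.62 ± 0.18 (SE) for Gabrd, 0.29 ± 0.16 for Gabra4, -0.44 ± 0.12 for Gabra5, -0.20 ± 0.15 for Gabra6 and 0.10 ± 0.14 for Gabra3. None was called by limma there (adjusted p from 0.415 to 0.777), where 0.176% of probes were.

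**Figure D2:**
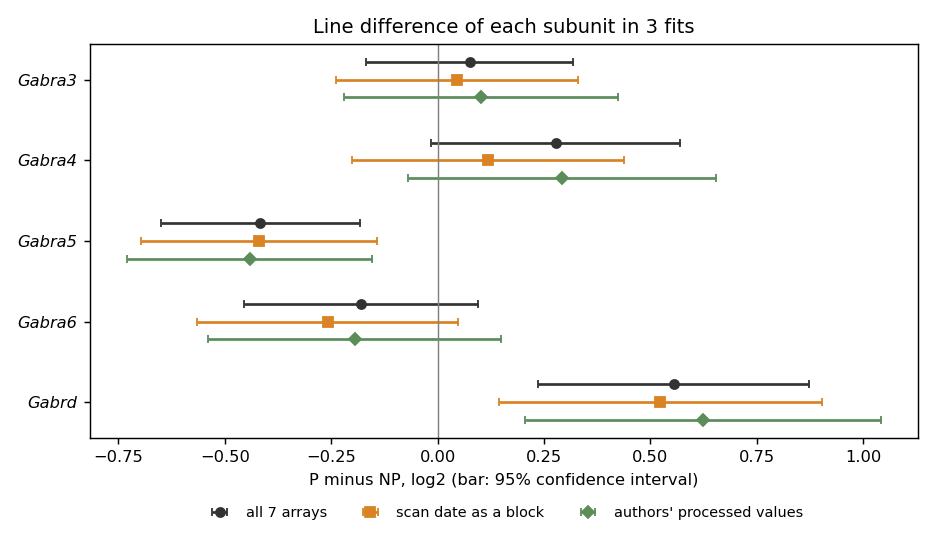
P minus NP difference of the 5 subunits on the log2 scale, with 95% confidence intervals, from the fit of all 7 arrays, the date-block fit and the values as processed by the authors. The intervals of Gabra5 and Gabrd stay on 1 side of 0 in the 3 fits, and Gabra4 is at 0.28 without the block and at 0.12 with it.

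To take scan date into account, the lines were also compared in a fit with a term for each date. Its line difference comes from the 4 arrays of date 1, as no other date holds both lines. Gabra5 differed there by -0.42 ± 0.12 (SE, adjusted p = 0.0762) and Gabrd by 0.52 ± 0.17 (SE, adjusted p = 0.0941). Gabra6 differed by -0.26 ± 0.14 (SE, adjusted p = 0.265) and Gabra3 by 0.05 ± 0.13 (SE, adjusted p = 0.851). This date-block fit called none of the 5 subunits and 5.72% of all tested probes. Fitted on the arrays of date 1 alone, the differences were the same by construction, and again none was called, where 6.47% of tested probes were. The headers of the scanner tables also carry a project label with 2 levels, 1 of which holds the arrays of date 1 and the other those of dates 2 and 3. Both levels hold both lines, so all 7 arrays enter a fit with this label as a block, an alternative added after the data were seen. The differences were then 0.58 ± 0.14 (SE, adjusted p = 0.0811) for Gabrd, -0.42 ± 0.10 (SE, adjusted p = 0.0836) for Gabra5 and 0.28 ± 0.13 (SE, adjusted p = 0.258) for Gabra4. Gabra6 differed by -0.20 ± 0.11 (SE, adjusted p = 0.326) and Gabra3 by 0.09 ± 0.11 (SE, adjusted p = 0.67). None of the 5 was called, where 0.838% of tested probes were. Within the second level alone, P 3 and P 4 against NP 4, Gabrd differed by 0.65, Gabra5 by -0.42 and Gabra4 by 0.52, with none called and the lone NP rat assumed to vary like the P rats. Gabra4 thus differed by 0.12 in the first level and by 0.52 in the second, and whether these differ was not tested.

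Over the alternatives run, the adjusted p of Gabra5 ranged from 0.0485 to 0.985 and that of Gabrd from 0.039 to 0.985. The only call of either came without P 3 and P 4 both, where Gabra5 differed by -0.43 (adjusted p = 0.0485) and Gabrd by 0.59 (adjusted p = 0.039). In that fit 3318 probes were called, against 84 of the 29003 tested over all 7 arrays.

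The P rats fell on 2 scan dates, so the subunits were also compared between P 1 and P 2 of date 1 and P 3 and P 4 of date 3. None of the 5 was called in that contrast, in which 16.7% of tested probes were. The differences were 0.07 ± 0.17 (SE, adjusted p = 0.794) for Gabrd and -0.03 ± 0.12 (SE, adjusted p = 0.902) for Gabra5. Gabra6 had the largest, -0.20 ± 0.14 (SE, adjusted p = 0.352), followed by Gabra4 at -0.16 ± 0.14 (SE, adjusted p = 0.463). Their median size was 0.07, against 0.22 for all tested probes. The contrast depended strongly on the processing. Without scaling between arrays all 5 subunits read lower in the P rats of date 1, and 4 of them were called. These were Gabra4 (-0.78, adjusted p = 0.00859), Gabra6 (-0.81, adjusted p = 0.0118), Gabra5 (-0.64, adjusted p = 0.0187) and Gabra3 (-0.52, adjusted p = 0.0466). Calls were common there, with 11061 probes called, against 4832 of 28923 tested with quantile normalization.

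The 250 bases before and 50 bases after the annotated start are shown for the 3 genes whose lines did not overlap, a pair with higher values in P and 1 gene with lower ones. The sequences are those of RefSeq on GRCr8, 5′ to 3′ along the gene, and 5 of the 6 genes had an entry. Gabrd lies at chr5:171252660-171252959 on the minus strand, Gabra4 at chr14:36944497-36944796 on the plus strand and Gabra5 at chr1:117516557-117516856 on the minus strand. Capitals mark the GC box, GGGCGG on either strand.
Gabrd: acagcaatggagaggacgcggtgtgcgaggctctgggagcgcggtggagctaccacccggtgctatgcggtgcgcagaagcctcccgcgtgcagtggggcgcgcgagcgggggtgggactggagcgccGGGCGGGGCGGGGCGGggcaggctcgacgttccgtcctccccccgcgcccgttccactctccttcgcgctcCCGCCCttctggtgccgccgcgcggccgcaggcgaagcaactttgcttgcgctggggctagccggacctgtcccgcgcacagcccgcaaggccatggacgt
Gabra4: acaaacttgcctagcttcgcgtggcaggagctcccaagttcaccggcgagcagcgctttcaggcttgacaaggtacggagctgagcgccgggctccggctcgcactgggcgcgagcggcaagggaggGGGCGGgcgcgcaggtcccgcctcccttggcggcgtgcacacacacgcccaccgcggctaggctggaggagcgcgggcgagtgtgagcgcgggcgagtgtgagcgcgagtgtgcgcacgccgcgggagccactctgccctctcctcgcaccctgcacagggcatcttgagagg
Gabra5: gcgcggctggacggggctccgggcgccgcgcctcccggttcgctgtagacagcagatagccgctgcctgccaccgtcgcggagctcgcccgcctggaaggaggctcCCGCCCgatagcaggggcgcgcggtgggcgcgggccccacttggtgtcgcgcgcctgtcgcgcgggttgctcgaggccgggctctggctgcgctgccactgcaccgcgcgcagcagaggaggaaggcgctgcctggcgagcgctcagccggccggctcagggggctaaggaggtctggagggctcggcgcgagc
The 3 windows were rich in G and C, at 73.7% for Gabrd, 70.7% for Gabra4 and 76.3% for Gabra5, against a median of 51.7% over all promoters of the same length. Gabrd held 4 GC boxes, 3 of them overlapping in 1 run, and Gabra4 and Gabra5 held 1 each. A GC box was found in 33.1% of 33469 promoters. The windows of Gabra6 (42.3% G and C) and Gabra3 (39.3%) held none. The letters GCGNGGGCG, the core of sites of the EGR family of activity-induced factors, occurred 2 times in Gabra4, apart from its GC box, and in none of the other 4 windows. They were found in 5.0% of all promoters. The CRE core TGACG was in none of the 5 windows (21.2% of all promoters), and the E-box CANNTG occurred 1 time each in Gabra5 and Gabra6 (72.1% of all promoters), searched on both strands. These matches are letters in a window, and no factor was measured.

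Most GABA-A receptor genes lie in clusters, and the neighbours of the subunits were read from the same arrays. In the GRCr8 gene order Gabra6 lies next to Gabrb2, with no other coding gene between them. Their differences were -0.18 ± 0.12 (SE) for Gabra6 and -0.26 ± 0.15 for Gabrb2, and neither was called (adjusted p = 0.567 and 0.52). Gabra5 lies next to Gabrg3, which differed by 0.12 ± 0.13, beside its own -0.42. Gabra4 lies next to Gabrb1, while Gabrg1 lies farther along its cluster, beyond Gabra2. Gabrb1 and Gabrg1 differed by -0.11 ± 0.16 and -0.19 ± 0.11, the other direction from the 0.28 of Gabra4. Gabra3 and Gabrq, its neighbour with 1 coding gene between them, differed by 0.08 and 0.33 ± 0.15 (adjusted p = 0.433). Gabrd has no such neighbour in the annotation. Whether members of a cluster differ from each other was not tested.

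**Figure D3:**
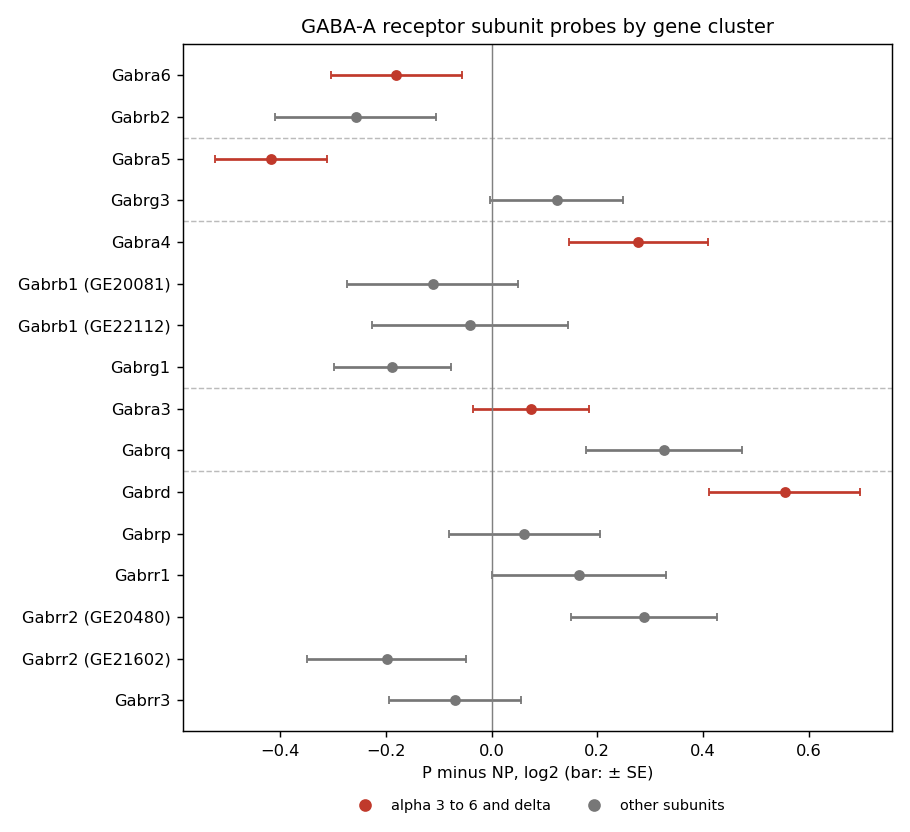
P minus NP difference ± SE on the log2 scale for the GABA-A receptor subunit probes reported here, with dashed lines between gene clusters, the alpha and delta subunits described here in red and the others in grey. The last block holds Gabrd and the other genes that are in none of the 4 clusters. Gabra6 and Gabrb2 of the top cluster lie below 0, and Gabrd lies farthest above it.

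Gabrb1, which encodes a beta subunit and neighbours Gabra4, was picked after its values were seen, for its spread among the P rats. Its brighter probe, GE20081, read 10.61, 10.33, 10.80 and 10.99 in P 1 to P 4, against 10.81, 10.92 and 10.65 in NP 2 to NP 4. P 1 and P 2 lay below every NP rat, P 4 lay above every NP rat, and the range within P was 0.66. The widest range within P among the 5 subunits was 0.39, that of Gabra6. Between P 1 and P 2 of scan date 1 and P 3 and P 4 of date 3, GE20081 differed by -0.43 ± 0.14 (SE, adjusted p = 0.0691), which is not a call. The other Gabrb1 probe, GE22112, differed there by -0.63 ± 0.13 (SE, adjusted p = 0.0123), and was called lower in the P rats of date 1.

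**Figure D4:**
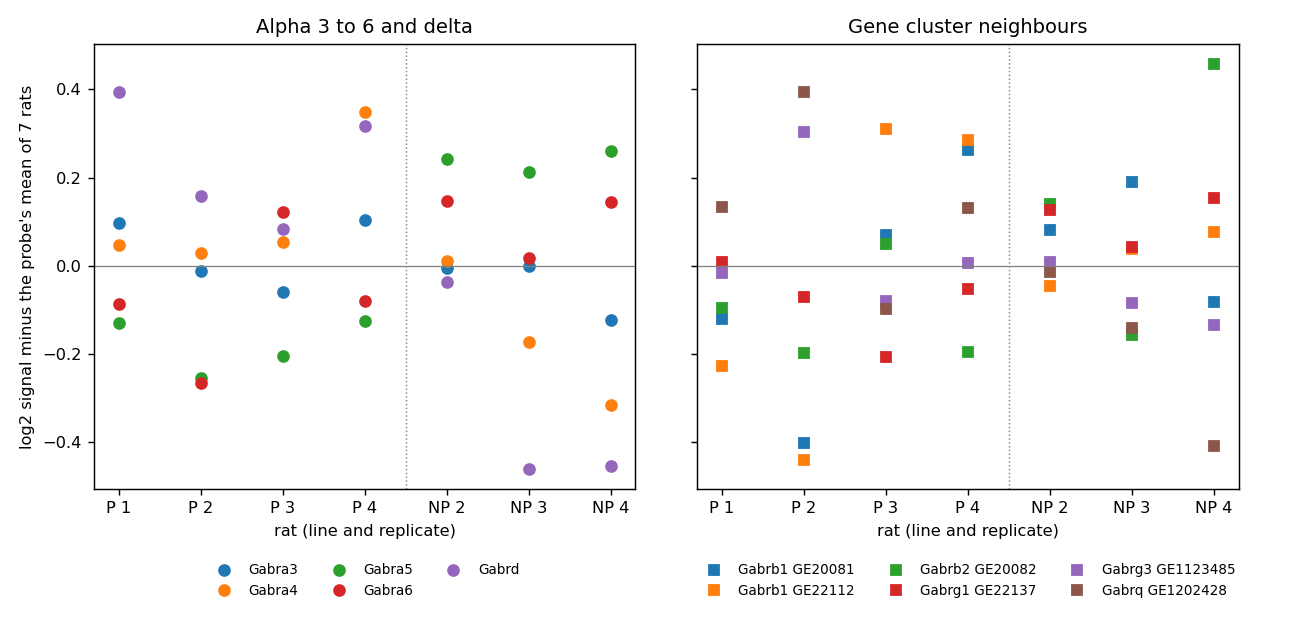
Log2 signal of each rat minus the mean of the 7 rats, for the 5 subunit probes (left) and for probes of neighbouring genes (right), with P rats left of the dotted line and NP rats right of it. The Gabra5 points change level between the lines, while both Gabrb1 probes are lowest in P 2.

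Of 51 other listed genes of GABA signalling, 38 had a named probe and 37 were tested. The list holds other receptor subunits, GABA-B receptors, synthesis and transport, receptor traffic, the chloride gradient and neurosteroid synthesis. None was called over all 7 arrays, and 3 (8.11%) had an unadjusted p under 0.05, against 11.5% of all tested probes. Of the 37 genes, 18 read higher and 19 lower in P, with a median difference of -0.07, where the median of all tested probes was 0.01. The median was -0.09 for 12 other receptor subunits, 0.18 for 7 genes of synthesis, breakdown and transport, and -0.11 for 9 genes of receptor traffic. It was -0.26 for 3 genes of the chloride gradient, -0.08 for 2 GABA-B receptor genes and 0.05 for 4 genes of neurosteroid synthesis.

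In the date-block fit 3 of the 37 genes were called, 2 of them described here, where 5.72% of tested probes were. Slc6a13, which encodes the GABA transporter GAT-2 known from meninges and liver, was higher in P by 0.72 ± 0.18 (SE, adjusted p = 0.0458). Slc12a2, the chloride importer NKCC1 that raises chloride inside cells, was lower by -0.49 ± 0.12 (SE, adjusted p = 0.0482). Over all 7 arrays Slc6a13 read 8.24, 7.98, 7.95 and 8.14 in P 1 to P 4, against 7.63, 7.14 and 7.27 in NP 2 to NP 4. Its lines did not overlap, and the difference was 0.73 ± 0.15 (SE, adjusted p = 0.112). With the project label as a block Slc6a13 was the only one of the 37 genes called (0.74 ± 0.14, adjusted p = 0.0457). Of the 4 tested markers of meninges and vessels, Slc22a6, an organic anion transporter, moved with Slc6a13 and was picked after its values were seen. It read 8.44, 8.45, 8.15 and 8.47 in P 1 to P 4, against 8.00, 7.76 and 7.21 in NP 2 to NP 4, a difference of 0.72 ± 0.18 (SE, adjusted p = 0.244). With the project label as a block it was called (0.78 ± 0.15, adjusted p = 0.0422). That fit called 2 of the 86 markers tested (2.33%), against 0.838% of all tested probes. The other was the serotonin transporter Slc6a4, lower in P by -0.85 ± 0.16 (adjusted p = 0.0466). The other 3 markers of meninges and vessels, Cldn5, Flt1 and Dcn, differed over all 7 arrays by 0.13, -0.05 and -0.06. The summed level of the 3 of the list with 7 values overlapped between the lines. The part of meningeal tissue in the differences of Slc6a13 and of Gabrd, which Slc6a13 follows, was not tested. Slc12a2 differed over all 7 arrays by -0.36 ± 0.19 (adjusted p = 0.479), and its lines overlapped. It read 9.96, 10.04, 10.54 and 10.59 in P 1 to P 4, against 10.53, 10.45 and 10.95 in NP 2 to NP 4. Between the P rats of scan dates 1 and 3 Slc12a2 differed by -0.57 ± 0.12 (SE, adjusted p = 0.0146). It was called by limma in that contrast, as were 16.7% of tested probes.

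The genes most like each subunit were taken by Pearson's r over the 7 rats, among 5295 named genes other than the subunit itself. These r describe how values vary together over 7 arrays that share line and scan date. They are the highest found among these genes and carry no test. For Gabrd they were Slc6a13 (r = 0.99), described above beside a meningeal marker, and Tox4 (r = 0.976). For Gabra5 they were Pter, a phosphotriesterase-related hydrolase (r = 0.988), and Haus1, a subunit of a spindle complex (r = 0.986). Gabra4 was most like Kcnk9, a leak potassium channel (r = 0.986), and Slc18a3, the vesicular acetylcholine transporter (r = 0.976). Gabra3 was most like Grin2b, an NMDA receptor subunit (r = 0.98), and Avp, vasopressin (r = 0.967). Gabra6 was most like Rnmt, an mRNA cap methyltransferase (r = 0.973), and Src, a tyrosine kinase (r = 0.972).

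Cell type and region markers were read beside the subunits. Of 86 tested marker genes in 15 lists, 0 were called by limma over all 7 arrays, where 0.29% of all tested probes were. An unadjusted p under 0.05 was found for 12 of the 86 (14%), against 11.5% of all tested probes. Of 10 listed neuron markers 6 were tested, and of 8 listed astrocyte markers 8. A tested probe is above background on 3 or more arrays by the filter. Of the neuron markers 3 averaged higher and 3 lower in P, with a median difference of -0.04. Of the astrocyte markers 5 averaged higher and 3 lower, with a median difference of 0.02. For cerebellar granule cells, the source of Gabra6, 9 of 15 listed markers were tested and none was called. The summed signal of the 8 with 7 values lay between 7759 and 10190 units in P and between 8307 and 9096 units in NP. For Purkinje cells the summed signal of 7 markers lay between 11190 and 13580 units in P and between 14190 and 16730 units in NP. It was the only list of the 15 with a gap between its rounded sums. For thalamus the lowest P sum and the highest NP sum were both 1645 units after rounding, so overlap there is not settled. The separation of the Purkinje sums rests on Pcp4, which made up 57.2% to 63.3% of the sum in P and 62.0% to 71.2% in NP. The sums of the other 6 markers lay between 4669 and 5105 units in P and between 4822 and 5391 units in NP, and overlapped. Of these 7 markers 2 read higher and 5 lower in P, and none was called. Pcp4 was picked after its values were seen. It averaged 12.86 in P and 13.26 in NP, with a difference of -0.40 ± 0.15 (SE, adjusted p = 0.382). The part of these markers in the subunit differences was not tested. The date-block fit called 6 of the 86 markers (6.98%), where 5.72% of all tested probes were called, with adjusted p between 0.0154 and 0.0489. Its differences come from the arrays of date 1. Neurod2, a factor of forebrain excitatory neurons, differed there by 0.94, and over all 7 arrays by 0.42. Aif1, a microglial gene, differed by -1.23 and over all arrays by -0.81, the serotonin transporter Slc6a4 by -1.05 and -0.70, and Calb1 of Purkinje cells and interneurons by -0.73 and -0.40. The neurofilament Nefm differed by -0.81 and over all arrays by -0.20, and the neuropeptide precursor Tac1 by -0.62 and -0.15. For both of these P 1 and P 2 lay below every NP rat and P 3 and P 4 above every NP rat. Nefm differed between the P rats of dates 1 and 3 by -1.21 (adjusted p = 0.00409) and Tac1 by -0.96 (adjusted p = 0.00595). In that contrast Slc6a4 differed by -1.09 (adjusted p = 0.00634), Neurod2 by 0.72 (adjusted p = 0.014) and Aif1 by -0.75 (adjusted p = 0.0282). All of these were called there by limma, as were 16.7% of tested probes, and Calb1 was not (-0.50, adjusted p = 0.075). Over all 7 arrays none of the 6 was called (adjusted p from 0.302 to 0.83).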

How the data were processed

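Whole-brain RNA of 4 P and 3 NP rats was measured on 1-colour arrays, 1 rat per array. Groups and replicate numbers came from the titles, and the labels say that each rat had an array of its own. The deposited scanner tables give, per the file headers, the intensity of each spot and of its surroundings, their difference, that difference after scaling, and a quality flag. A table of log2 values was also deposited by the authors, with its method not given in the sources used here. Its row numbers encode spot positions, and its columns correlated with the logarithm of the scaled values with r of 0.9985 or higher. Whether it was adjusted further is not known, and the build behind the probe design is not stated.

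With limma 3.58.1 in R 4.3.3, normexp correction (offset 50) was fitted on all spots, 240 positive and 256 negative controls were dropped, spots with the outlier flags M, I or C were set to missing, and arrays were quantile normalized on the log2 scale. Probes above background on at least 3 of 7 arrays (29008) were kept, and 29003 could be fitted with lmFit and eBayes. All p-values are two-sided. Accessions named 7207 probes for 6046 genes through the GRCr8 RefSeq table, used for names and gene order only. A gene other than the 5 subunits is represented by its brightest tested probe.

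The subunits, gene lists, alternatives and naming rule were chosen with earlier results of these data known. Named are all subunits, other GABA genes and markers called over all arrays or with the date block, and the 2 genes most like each subunit. Gabrb2, Gabrg3, Gabrg1 and Gabrq, named for their gene clusters, lie outside this rule and were named with their values known. So do Cldn5, Flt1 and Dcn, the rest of a marker list, and the genes said to be picked after their values were seen. Sameness of replicate numbers was checked by the correlation of deviations from group means. The same code was first tested on simulated data with known changes. Some genes that this rule or the gene lists hold are counted but not reported here by name. The probe sequences were not used here. Figures were drawn with matplotlib 3.10.9.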

Additional observations from a re-analysis of the deposited data

Results flagged for a closer look

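The Gabra4 signal of rat P 4 (10.05 on the log2 scale) lay far from those of the other P rats, which read between 9.73 and 9.75. Its gap to the nearest of them took up 0.921 of the range of the P values. Without P 4 the P minus NP difference of Gabra4 was 0.20, against 0.28 with it. P 4 was found in 1 of 5 sets of P values examined for a lone distant sample, where 0.25 would be found by chance. The 3 NP values were not examined in this way.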

How the results depend on the processing

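The P minus NP difference of each of the 5 subunits kept its sign in all 26 alternatives. Gabra5 ranged from -0.44 to -0.37, Gabrd from 0.48 to 0.69, Gabra4 from 0.12 to 0.52, Gabra6 from -0.28 to -0.08 and Gabra3 from 0.04 to 0.14. The count of called subunits, 0 over all 7 arrays, was 2 without P 3 and P 4 and 0 in each of the other alternatives, so it ranged from 0 to 0 when 1 rat was left out. The count of other called GABA genes, of 37 tested, was 0 over all 7 arrays and 0 to 0 when 1 rat was left out. It was 3 with scan date as a block, where 5.72% of all tested probes were called. Within scan date 1 alone it was 2, where 6.47% of probes were called, and with the project label as a block 1, where 0.838% were. Without P 3 and P 4 it was 5, where 3318 probes were called. Over all probes the 84 calls became 1660 with scan date as a block, 1870 within scan date 1 alone, 159 with date as a random block, 243 with the project label as a block (added after seeing the data), 189 without P 1 and P 2, 3318 without P 3 and P 4, 151 with array weights, 51 in the authors' processed values, 49 for probes above background on all arrays and 30 without scaling between arrays. When 1 rat was left out they ranged from 51 to 121, with 51 without NP 4 and 53 without NP 3. The cause of these changes was not tested, beyond the fewer arrays or probes that some of them use.

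The replicate numbers did not pair the samples: same-numbered P and NP rats had correlations of 0.169, 0.011 and -0.0387. With the replicate block 104 probes and none of the 5 subunits were called, with Gabra5 at -0.43 and Gabrd at 0.50.

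Between P rats of scan dates 1 and 3, the 4832 calls became 555 with plain background subtraction, 4 in the authors' processed values and 11061 without scaling between arrays, alternatives chosen after seeing the data, as were the other 7 for this contrast. Gabra3 changed sign there with median scaling (-0.073), cyclic loess (-0.018), no scaling (-0.52) and the authors' values (-0.045), and Gabrd with median scaling (-0.12) and no scaling (-0.56). The cause was not tested. Gabra3 lay nearest to background, at 2.62 to 4.35 times the local background.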

Other observations

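Since the separation of the lines for single subunits needs scaling between arrays, log2 ratios of 2 probes of the same array, which need none, were read from the background-subtracted intensities. They were chosen after the values above were seen and carry no test, and the level of such a ratio has no meaning by itself, only its change between rats. The ratio of Gabrd to Gabra5 was -1.001, -1.24, -1.27 and -1.08 in P 1 to P 4, against -1.77, -2.31 and -2.49 in NP 2 to NP 4. It averaged -1.15 ± 0.13 in the P rats and -2.19 ± 0.37 in the NP rats (SD, n = 4 and 3), a difference of 1.04. The ratio of Gabra4 to Gabra5 averaged -0.31 ± 0.13 in P and -1.04 ± 0.24 in NP, and that of Gabrd to Gabra6 -0.81 ± 0.25 in P and -1.61 ± 0.32 in NP. The ratio of Gabrd to Gabra4 averaged -0.83 ± 0.17 in P and -1.15 ± 0.17 in NP. The lines were separate in 9 of the 10 possible ratios of these 5 probes, as they were in 11.8% of all pairs of named genes. The 10 ratios share 5 probes, and most of them restate the single probes, since they set a subunit with higher values in P over one with lower values. They do not say which subunit differed between the lines.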
